A study of Homo sapiens with 21 samples.

Results

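Cultures labelled HepG2 that had received 100 µM coumarin for 6 h were compared with untreated cultures (0 µM) of the same label and time, 3 libraries against 3 of the 21 in the series. The members were chosen by dose label alone, and the comparison was read across all 58735 genes of the deposited table, of which 16196 had enough counts to be tested. The series also holds 5 lower doses, from 0.001 to 10 µM, with 3 libraries each, and it asks which genes respond to coumarin at each dose. All cultures, the controls included, were moved from serum-containing medium to fresh serum-free DMEM for the exposure, so 6 h without serum is shared by both groups. RNA was harvested by trypsin and Trizol and selected on poly(dT) beads. The design text calls the 3 samples of a group biological replicates, and nothing else in the labels separates cultures, so p-values measure the spread between these samples. No clone, passage or vehicle is named, and the stock was made in the medium itself.

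Coumarin is a benzopyrone of tonka bean and cassia cinnamon that human liver clears mainly by hydroxylation through CYP2A6. Cells meet such small aromatic compounds with several sensing systems. The aryl hydrocarbon receptor is a ligand-activated transcription factor that turns on enzymes of foreign compound metabolism together with its own repressors. The integrated stress response slows translation and raises ATF4 targets such as CHAC1, a glutathione-degrading enzyme, and ATF3, a stress-induced transcription factor. Growth factor signalling through the kinase ERK sustains genes of feedback phosphatases and immediate early factors.

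The 6 libraries held 27984517 to 36488412 gene counts, and 3 counts correspond to 0.0822 to 0.107 CPM (counts scaled to a common library total), counting error only. Counts of replicate pairs were further apart than sampling alone gives (chi-square per degree of freedom 2.78 to 5.99), so each library was counted once. Levels below are CPM scaled by the trimmed mean of M-values (TMM), and fold changes are log2 values from the edgeR quasi-likelihood fit with Benjamini-Hochberg adjustment over all genes tested. The HepG2 label was checked against 10 hepatocyte markers. Of these ALB, APOA1, TTR, SERPINA1 and FGB had 0 reads in all 6 libraries. The summed level of the 10 was 0.0551 to 0.0700 CPM at 0 µM and 0.0284 to 0.0873 at 100 µM. CYP2A6 had 2 reads in the 6 libraries, CYP1A2 and CYP3A4 had 0, and CYP2E1 had 4. Hepatocyte markers were thus near or under the level of 3 counts, and these values do not bear out a hepatocyte-like identity. The cells are therefore called here by their label only, and the identity of the line was not established. In bulk RNA, fewer cells of a type and less RNA per cell cannot be told apart. Markers of simple epithelium summed to 4206 to 4560 CPM at 0 µM and to 4031 to 4153 at 100 µM. KRT7, KRT8 and KRT18 carried this sum, with means of 1188, 2314 and 918 CPM at 0 µM. EPCAM had 0 reads and KRT19 1, and SOX9 and CDH1 averaged 0.103 and 0.664 CPM at 0 µM. Mesenchymal markers summed to 1725 to 1778 CPM at 0 µM and 1665 to 1721 at 100 µM, with COL1A2 at 0 reads. COL3A1 and COL5A1 made up most of this sum, at 952 and 345 CPM at 0 µM. Endothelial markers summed to 1.26 to 1.43 CPM and 0.786 to 0.995, leukocyte markers to 0.140 to 0.358 and 0.0989 to 0.233, and neural markers to 4.48 to 5.43 and 4.95 to 5.88. The part of these shifts in the gene results was not tested.

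At 100 µM, 780 genes were lower than in untreated cells and 610 were higher, which is 4.82% and 3.77% of the genes tested and 8.58% together. Falls were shallow: the median log2 fold change of the lower genes was -0.20, and 529 of them fell by less than 0.25. Rises had a median of 0.26, and 291 of them were under 0.25. Falls of 0.5 or more on the log2 scale numbered 72, against 108 rises of that size. A fall of 2-fold or more was estimated for 17 genes (0.105%) and a rise of that size for 42 (0.259%). Of the 17, 14 had a mean under 2 CPM and 7 were protein coding. The others were TNFSF15, SAMD9 and RN7SL2, an RNA of the signal recognition particle with near-identical copies, whose level of 48.0 ± 15.3 CPM at 0 µM and 22.5 ± 3.68 at 100 µM is uncertain (SD, n = 3 each). The RN7SL2 call was lost without any of the 6 libraries except 0 µM replicate 2.

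Among 5990 genes with a mean of at least 32 CPM, 555 were lower (9.27%) and 323 higher (5.39%). The 3 libraries at 100 µM lay below all 3 untreated libraries for 764 of the 780 lower genes, where 13.9% of all genes tested did, and above them for 596 of the 610 higher genes, where 13.1% did. Set against all 18 other libraries of the series, the 100 µM libraries were the lowest for 387 of the 780 lower genes, where they were for 3.31% of all genes tested, and the highest for 285 of the 610 higher genes, where they were for 2.41%. The counts rested on single libraries. Without 100 µM replicate 1 there were 362 lower and 337 higher genes, without 0 µM replicate 1 there were 408 and 390, and without 0 µM replicate 2 there were 446 and 328. Without 100 µM replicate 3 there were 487 lower and 409 higher genes. Calls that held in each of the 6 fits that left out 1 library numbered 259 lower (1.6%) and 231 higher (1.43%). A call described below as held is one of these.

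**Figure D1:**
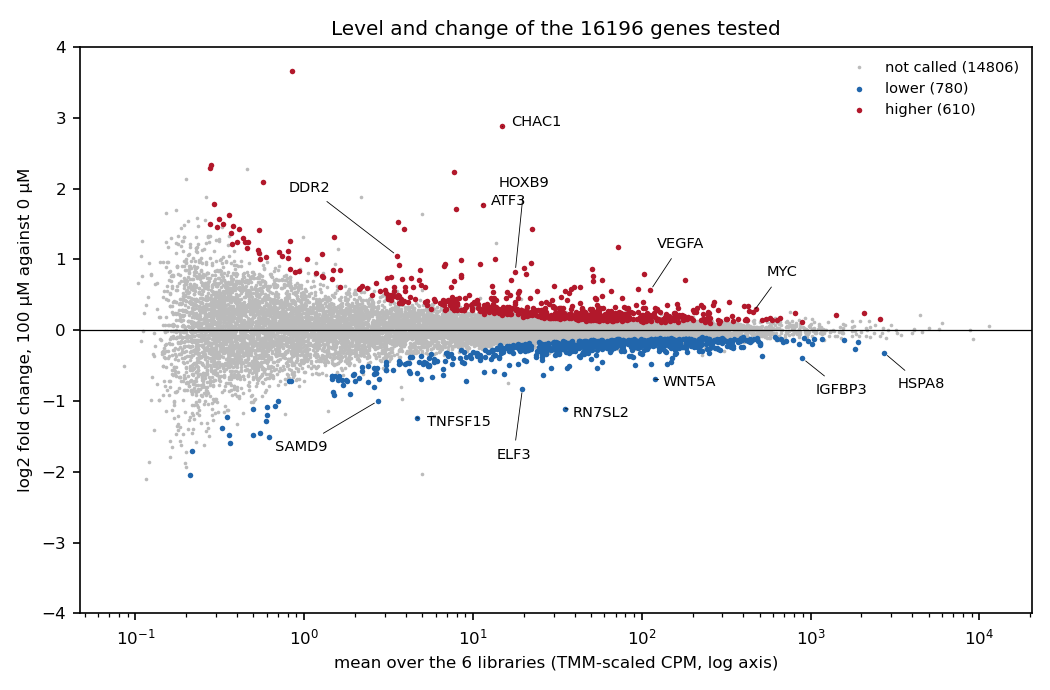
Log2 fold change at 100 µM against 0 µM (vertical axis) plotted on mean level over the 6 libraries (TMM-scaled CPM, log axis), 1 point per gene tested, with the 780 lower genes in blue, the 610 higher genes in red and the rest in grey. Most blue points lie between 10 and 1000 CPM and close to 0, whereas CHAC1 and ATF3 stand apart on the upper side, TNFSF15, ELF3 and WNT5A on the lower.

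Base sequences of 5 promoters are shown because these genes carry the patterns described below: CHAC1 for the ATF4 genes, TNFSF15 for a fall past 2-fold and WNT5A for the fall with the smallest p, TIPARP for the aryl hydrocarbon receptor genes and HSPA8 for the heat shock chaperones. Each is the window of 250 bases before the RefSeq start site (GRCh38.p14), written 5′ to 3′ on the strand of the gene. All 5 windows lie inside the gene spans of the deposited table and not at their 5′ ends. The span of TNFSF15 begins at 114806126 and that of WNT5A at 55490539 on the minus strand, upstream of their windows. Capitals mark a match, on either strand, to the motif named for that gene. The motifs were TGATGNAAN (the composite site of ATF4 and C/EBP) for CHAC1, TGANTCA (AP-1) for TNFSF15 and WNT5A, GCGTG (core of the aryl hydrocarbon receptor site) for TIPARP and GAANNTTC (heat shock element) for HSPA8. The windows lie at chr15:40953221-40953470 (+) for CHAC1, chr9:114792531-114792780 (-) for TNFSF15, chr3:55487307-55487556 (-) for WNT5A, chr3:156674340-156674589 (+) for TIPARP and chr11:123062137-123062386 (-) for HSPA8.
CHAC1: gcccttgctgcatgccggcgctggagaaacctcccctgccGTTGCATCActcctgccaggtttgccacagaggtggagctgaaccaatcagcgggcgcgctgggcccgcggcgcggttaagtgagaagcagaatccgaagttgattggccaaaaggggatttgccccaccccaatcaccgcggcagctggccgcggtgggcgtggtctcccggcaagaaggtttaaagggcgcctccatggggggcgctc
TNFSF15: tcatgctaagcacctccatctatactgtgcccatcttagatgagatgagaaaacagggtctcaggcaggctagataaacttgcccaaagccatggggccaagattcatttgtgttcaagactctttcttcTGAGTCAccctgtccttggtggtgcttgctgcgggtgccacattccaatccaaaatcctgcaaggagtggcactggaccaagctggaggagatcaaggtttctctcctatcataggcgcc
WNT5A: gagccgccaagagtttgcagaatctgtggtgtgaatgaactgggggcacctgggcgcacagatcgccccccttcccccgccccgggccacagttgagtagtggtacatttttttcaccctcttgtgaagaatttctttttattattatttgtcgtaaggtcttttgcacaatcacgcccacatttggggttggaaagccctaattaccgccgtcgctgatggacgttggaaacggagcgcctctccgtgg
TIPARP: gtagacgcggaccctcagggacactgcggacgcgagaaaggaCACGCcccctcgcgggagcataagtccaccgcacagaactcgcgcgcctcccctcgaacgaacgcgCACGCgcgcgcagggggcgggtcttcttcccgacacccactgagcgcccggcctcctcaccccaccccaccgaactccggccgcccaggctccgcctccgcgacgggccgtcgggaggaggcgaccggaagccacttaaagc
HSPA8: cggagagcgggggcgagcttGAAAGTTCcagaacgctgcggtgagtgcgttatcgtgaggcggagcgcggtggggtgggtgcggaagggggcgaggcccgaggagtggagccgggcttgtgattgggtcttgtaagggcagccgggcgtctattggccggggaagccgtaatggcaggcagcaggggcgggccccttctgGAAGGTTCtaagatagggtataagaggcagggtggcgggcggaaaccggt
The window of CHAC1 held 1 match, first base at -210 from the start, TNFSF15 held 1 at -120, TIPARP 2 at -208 and -142, and HSPA8 2 at -230 and -50. WNT5A held no match, which says only that these letters are not in this window.

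Of the 16196 genes tested, 10992 had a RefSeq promoter window, among them 606 lower and 476 higher genes. TGATGNAAN was found in 6 of 37 windows of ATF4 list genes that rose (16.2%), against 1.31% of all genes tested. TGANTCA was found in 4.13% of the lower and 1.68% of the higher genes, against 3.95% of all. GCGTG was found in 43.4% of the lower genes and in 3 of the 6 aryl hydrocarbon receptor genes that fell and had a window, against 45.6% of all. GAANNTTC was found in 4 of the 9 heat shock chaperone genes that fell, against 4.02% of all. A match is a description of letters and not of binding. Shares were not counted apart for the uncalled members of these lists. They therefore describe the lists and cannot tie a motif to a rise or fall. Over all 27305 windows of the table, TGATGNAAN stood in 3.18%, TGANTCA in 6.60%, GCGTG in 31.9% and GAANNTTC in 5.85%.

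The deepest well-measured fall was that of TNFSF15, a cytokine of the tumour necrosis factor family that co-stimulates T cells and restrains blood vessel growth (chromosome 9 from 114784635 to 114806126, GRCh38). It stood at 6.28, 6.41 and 6.83 CPM in the untreated libraries and at 2.90, 2.93 and 2.44 at 100 µM. The groups do not overlap, and the lowest value was that of 100 µM replicate 3. The log2 fold change was -1.24 (SE 0.122, edgeR quasi-likelihood adjusted p = 6.31e-09), and the call held. SAMD9, an interferon-induced antiviral factor, stood at 4.08, 3.92 and 2.97 CPM untreated and 1.39, 2.27 and 1.77 treated. Its lowest untreated library was replicate 3, still above the highest treated one, and it fell by 1.00 (SE 0.171, adjusted p = 0.000169).

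Among 27 NF-kappaB targets, 4 fell (14.8%, against 4.82% of all genes tested) and 0 rose, with a median of -0.03; TNFSF15 and NFKBIA, the inhibitor of NF-kappaB that its own target gene encodes, held. NFKBIA stood at 63.5, 63.5 and 65.6 CPM untreated and 56.9, 53.9 and 55.9 treated, which separated the groups (-0.21, SE 0.0473, adjusted p = 0.00386). In the tumour necrosis factor superfamily, 3 of 17 members fell (17.6%) and 1 rose, with a median of 0.03. TNFRSF10D, a decoy receptor for the death ligand TRAIL, went from 38.9 ± 1.13 to 34.0 ± 0.814 CPM (-0.20, SE 0.0445, adjusted p = 0.00392; SD, n = 3 each). Of 34 interferon-stimulated genes, 2 fell (5.88%) and 1 rose (2.94%), near the 4.82% and 3.77% of all genes tested. SAMD9 was their only held call, and the list median was -0.01. The median over all genes tested was 0.0025.

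WNT5A, a secreted ligand of the noncanonical Wnt pathway (chromosome 3 from 55465715 to 55490539), fell at a high level of expression. The untreated libraries held 145, 150 and 146 CPM and the treated ones 87.9, 93.0 and 91.9. The spread within each group was under 3 CPM (SD, n = 3), and the log2 fold change was -0.69 (SE 0.0413, adjusted p = 3.29e-14). Among all falls it had the smallest p. WNT7B, another secreted Wnt ligand, stood at 93.6, 94.8 and 96.1 CPM untreated and 76.3, 70.2 and 75.2 treated (-0.36, SE 0.0470, adjusted p = 1.99e-06). ROR1, a receptor that binds WNT5A, went from 23.0 ± 1.42 to 18.8 ± 0.498 CPM (-0.29, adjusted p = 0.00584), a call lost without 0 µM replicate 1. Of the 39 Wnt pathway genes tested, 3 fell (7.69%, against 4.82% of all genes tested) and 1 rose (2.56%, against 3.77%). The list median was -0.02. WNT5A overlaps WNT5A-AS1 on the opposite strand and ROR1 several genes there.

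ELF3 and EHF, paired transcription factors of the epithelium-specific ETS group, both fell. ELF3 stood at 25.3, 24.2 and 25.7 CPM untreated and 15.0, 13.8 and 13.7 at 100 µM (-0.83, SE 0.0690, adjusted p = 1.35e-10). EHF was low in all libraries, at 1.79, 1.86 and 2.12 CPM untreated and 0.989, 1.28 and 0.873 treated (-0.87, SE 0.191, adjusted p = 0.0028). For both genes the treated libraries lay below all 18 others. The list of epithelial regulators and junction genes had 5 falls (22.7%, against 4.82% of all genes tested) and 0 rises among 22 members. Its median was -0.10, and it had 3 falls without 100 µM replicate 2 or without 100 µM replicate 3. Only ELF3 and EHF held in the list. In the keratin list, intermediate filaments of epithelia, 2 of 10 tested fell (20%) and 1 rose (10%, against 3.77% of all genes tested). With offsets for length and GC in the fit, 4 fell and 0 rose. KRT4, which the list leaves out, also fell (-0.54, adjusted p = 0.0349). The rise, of KRT17, was kept when 1 of the 6 libraries was left out and lost for the other 5. KRT18 stood at 931, 895 and 928 CPM untreated and 800, 785 and 813 treated (-0.20, adjusted p = 0.000511), and KRT80 went from 319 ± 4.74 to 264 ± 5.05 CPM (-0.28, adjusted p = 1.37e-06; SD, n = 3 each). ELF3 overlaps AL691482.3 and ELF3-AS1, and KRT18 overlaps KRT8, so their counts are uncertain.

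**Figure D2:**
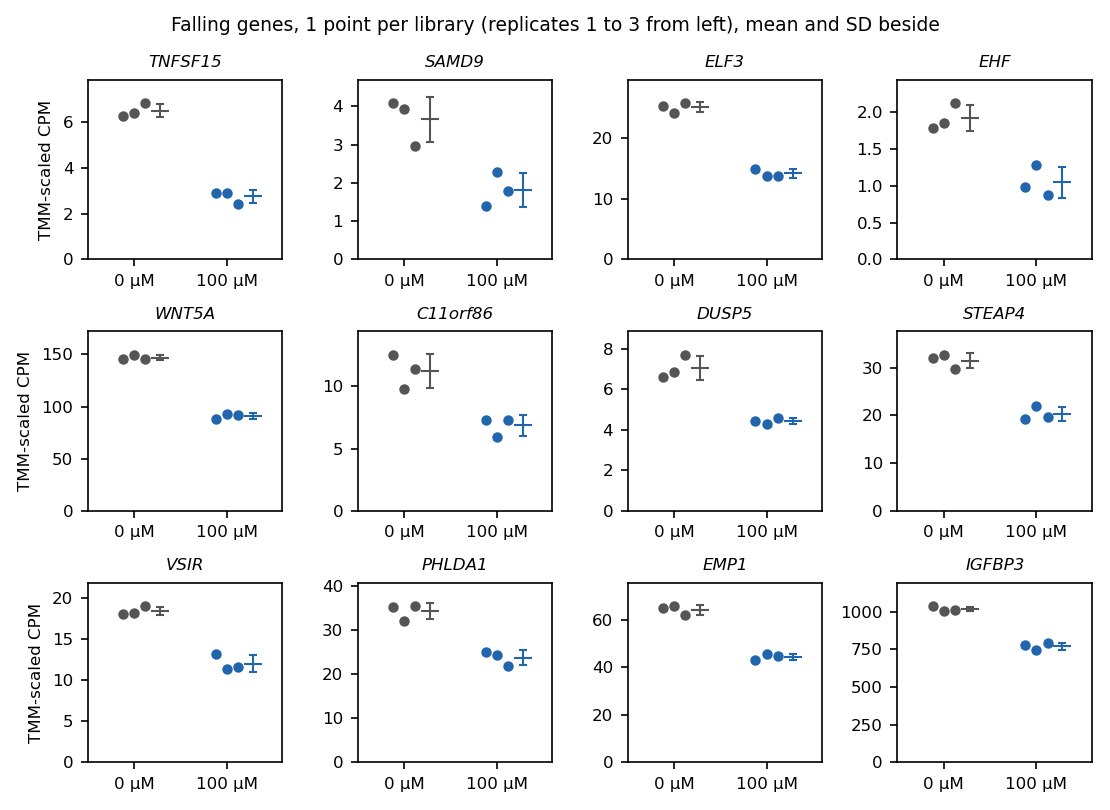
TMM-scaled CPM of 12 falling genes in the 3 untreated (grey) and 3 treated (blue) libraries, replicates 1 to 3 from left to right, with the mean and SD of each group as a bar beside them; each vertical axis starts at 0. In none of the 12 genes do the groups overlap, from EHF near 1 to 2 CPM up to IGFBP3, with 1005 to 1034 CPM untreated and 746 to 792 treated. Most of the 12 were taken from the largest falls, whose rule required separate groups.

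Several other genes of the largest falls encode surface or signalling proteins. STEAP4, a metalloreductase of iron and copper handling, stood at 32, 32.7 and 29.8 CPM untreated and 19.3, 22.0 and 19.6 treated (-0.63, SE 0.0604, adjusted p = 3.54e-09). C11orf86, a gene of unassigned function, stood at 12.5, 9.77 and 11.4 CPM against 7.32, 5.91 and 7.30, with a wider spread but no overlap (-0.72, adjusted p = 6.73e-06). EMP1, a four-transmembrane epithelial membrane protein, stood at 64.8, 65.6 and 61.8 CPM against 42.9, 45.5 and 44.6 (-0.53, adjusted p = 1.07e-09). In each of these the highest treated library was well under the lowest untreated one. VSIR, an immune checkpoint protein, held 18.1, 18.2 and 19 CPM untreated and 13.2, 11.4 and 11.6 treated (-0.62, adjusted p = 5.06e-07), but it lies within CDH23 on the opposite strand and its counts are uncertain. RASL11A, a small GTPase-like protein, went from 13.9 ± 0.993 to 9.27 ± 0.395 CPM (-0.58, adjusted p = 9.90e-07; SD, n = 3 each).

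Further large falls were of low transcripts, between 1.79 and 7.90 CPM in the group means. TNS4, a focal adhesion tensin, fell by 0.73 on the log2 scale, HRASLS2, a phospholipid-modifying enzyme, by 0.69, SPOCK2, a matrix proteoglycan, by 0.62, and SYNC, an intermediate filament partner, by 0.61. APBB1IP, an adaptor that activates integrins through RAP1, fell by 0.58, and CYP24A1, the enzyme that degrades active vitamin D, by 0.55. CYP24A1 held 8.43, 6.86 and 8.42 CPM untreated and 4.45, 5.51 and 6.26 treated, so its groups came within 0.6 CPM of each other. Of the 24 largest falls of called protein-coding genes with separate groups and a mean log2 CPM of at least 1, 18 held, and in 19 the treated libraries lay below all 18 others. The calls of ISPD (-0.61), CYP1B1 (-0.60), ST3GAL5 (-0.60), ASZ1 (-0.60), KRT4 (-0.54) and CRYAB (-0.52) did not hold. ISPD was lost without 0 µM replicate 1 and CYP1B1 without 100 µM replicate 1. ST3GAL5 was lost without 0 µM replicates 2 or 3 or 100 µM replicate 3, and ASZ1 without 0 µM replicates 1 or 2 or 100 µM replicate 1. KRT4 was lost without 0 µM replicates 1 or 2 or 100 µM replicates 2 or 3, and CRYAB without any library except 0 µM replicate 2. SYNC overlaps RBBP4 on the opposite strand, and APBB1IP overlaps RNA5SP307.

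Targets of the aryl hydrocarbon receptor made up the list with the highest share of falls among those drawn. Of 13 members tested, 7 fell and 0 rose, against 4.82% and 3.77% of all genes, and the median was -0.32 against 0.0025. The receptor gene itself, AHR, stood at 13.4, 14.0 and 13.1 CPM untreated and 13.1, 13.5 and 12 treated, overlapping groups that were not called (-0.07, adjusted p = 0.612). TIPARP, a mono-ADP-ribosyltransferase that represses the receptor, stood at 69.9, 67.4 and 63.3 CPM untreated and 48.1, 49.3 and 49.3 treated (-0.45, SE 0.0475, adjusted p = 2.94e-08). AHRR, the receptor's repressor protein, stood at 162, 191 and 174 CPM against 144, 138 and 142 (-0.32, adjusted p = 9.02e-05). The feedback repressors thus had no overlap between groups, though AHRR overlaps PDCD6 on its own strand and TIPARP overlaps TIPARP-AS1. TNFAIP2, a cytokine-inducible regulator of membrane protrusions, stood at 28.3, 28.7 and 30.1 CPM against 23.1, 22.8 and 21.4 (-0.37, adjusted p = 6.02e-05).

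CYP1A1, the best known target of the receptor, was not called (0.496, 1.02 and 0.795 CPM untreated against 0.363, 0.284 and 0.611, adjusted p = 0.124), and its groups overlap. CYP1B1, an enzyme that activates aromatic procarcinogens, stood at 5.95, 5.81 and 5.21 CPM untreated and 2.84, 4.35 and 3.90 treated (-0.60, adjusted p = 0.00394), a call lost without 100 µM replicate 1, its lowest library. NQO1, a quinone reductase also driven by NRF2, stood at 730, 675 and 687 CPM against 645, 633 and 634 (-0.13, adjusted p = 0.0285). The groups of NQO1 do not overlap, but its call was lost without 0 µM replicate 1 or any 100 µM library, and with limma. The integrin gene ITGB6 (-0.71, adjusted p = 0.0150) was lost without 0 µM replicate 2 or 100 µM replicates 1 or 2. Without 100 µM replicate 1, 4 of the 13 members fell, and TIPARP, ALDH1A3, TNFAIP2 and AHRR held in every fit. Among 28 NRF2 targets, 2 fell (NQO1 and TXNRD1, 7.14%) and 1 rose (SRXN1, 3.57%), with a median of 0.00. The 22 genes of coumarin and foreign compound metabolism gave 0 falls and 1 rise (4.55%). Over all genes tested the shares were 4.82% lower and 3.77% higher.

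Genes of retinoid handling share ALDH1A3 with the preceding list, and 5 of 17 fell. Vitamin A is oxidised in steps to retinoic acid, which acts on nuclear receptors. DHRS3, which returns retinal to retinol, stood at 43.2, 38.9 and 45.5 CPM untreated and 28.5, 28.6 and 31.5 treated (-0.53, SE 0.0618, adjusted p = 2.43e-07). ALDH1A3, which makes retinoic acid, stood at 49.9, 47.7 and 49.0 CPM against 36.6, 38.9 and 37.7 (-0.37, adjusted p = 5.06e-07). RARG, a retinoic acid receptor, stood at 47.0, 46.6 and 49.9 CPM against 37.4, 38.3 and 35.3 (-0.37, adjusted p = 1.14e-06). All 3 genes separated the groups and held. RXRB, a partner receptor, went the other way, from 74.1 ± 1.35 to 84.4 ± 1.81 CPM (0.19, adjusted p = 0.00176; SD, n = 3 each), and overlaps SLC39A7 on the opposite strand. Of 17 members, 5 fell (29.4%, against 4.82% of all genes tested) and 1 rose (5.88%, against 3.77%). The median was -0.18, and 3 fell without 100 µM replicate 1. DHRS3 overlaps RNU6ATAC18P and MIR6730, and ALDH1A3 overlaps AC015712.5 and genes on the opposite strand.

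**Figure D3:**
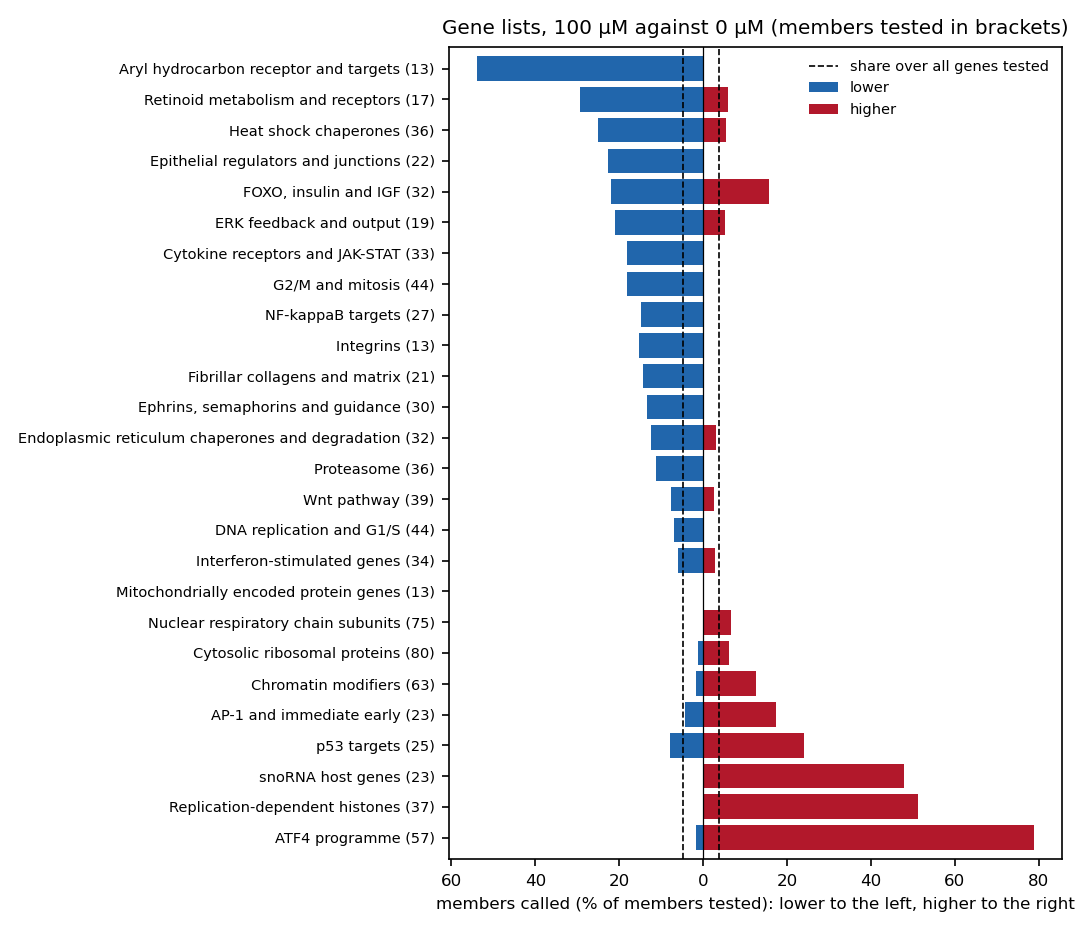
Share of tested members called lower (blue, to the left) and higher (red, to the right) in 26 gene lists, in percent, with the number of members tested in brackets; dashed lines mark the shares over all genes tested, 4.82% lower and 3.77% higher. Aryl hydrocarbon receptor targets have the longest blue bar of the lists drawn, 53.8% of 13, and the ATF4 list the longest red one, 78.9% of 57.

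Output genes of the ERK pathway fell in part. DUSP5, a nuclear phosphatase that ERK induces and that inactivates ERK, stood at 6.58, 6.83 and 7.69 CPM untreated and 4.45, 4.29 and 4.6 treated (-0.66, SE 0.101, adjusted p = 2.83e-05). PHLDA1, a pleckstrin-homology protein of the same output, stood at 35.2, 32.1 and 35.3 CPM against 24.9, 24.3 and 21.8 (-0.53, SE 0.0555, adjusted p = 2.29e-08). Both held with clear gaps between groups. In the list of 19, 4 fell (21.1%, against 4.82% of all genes tested) and 1 rose (5.26%, against 3.77%). Its median was -0.12, and 2 fell without 0 µM replicate 1 or 100 µM replicate 2. IER3, an immediate early survival gene, stood at 107, 101 and 113 CPM against 79.6, 69.8 and 78.2 (-0.50, adjusted p = 1.00e-06).

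In the immediate early list, 4 of 23 members rose (17.4%, against 3.77% of all genes tested) and 1, IER3, fell (4.35%, against 4.82%). The median was 0.05. JUN, the AP-1 subunit that stress kinases activate, stood at 12.2, 12.3 and 13.8 CPM untreated and 21.5, 20.9 and 20.3 treated (0.71, SE 0.0791, adjusted p = 9.03e-08). KLF4, a zinc finger factor of differentiation and growth arrest, stood at 6.22, 6.2 and 6.27 CPM against 10.6, 10.3 and 11.3 (0.78, SE 0.0895, adjusted p = 1.60e-07). The untreated libraries of KLF4 were within 0.1 CPM of each other. MYC, a driver of growth and ribosome production, was abundant at 420, 413 and 416 CPM and reached 517, 478 and 499 (0.26, SE 0.0351, adjusted p = 3.95e-06). All 3 rises held.

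Growth factor and cytokine receptors mostly stayed uncalled, with single falls. KITLG, the ligand of the receptor KIT, stood at 156, 163 and 145 CPM untreated and 118, 127 and 129 treated (-0.31, adjusted p = 0.000764). PDGFRB, a platelet-derived growth factor receptor and a mesenchymal marker, stood at 32.8, 32.2 and 30.7 CPM against 28, 24.4 and 27 (-0.27, adjusted p = 0.000919). Opposite to these, DDR2, a collagen receptor, rose from 1.98, 2.42 and 2.53 CPM to 4.78, 4.55 and 5.03 (1.05, SE 0.154, adjusted p = 1.39e-05), and VEGFA, the main ligand of blood vessel growth, from 90.8 ± 4.18 to 134 ± 10.6 CPM (0.56, SE 0.0933, adjusted p = 0.00104; SD, n = 3 each). In this list of 23, 4 fell (17.4%, against 4.82% of all genes tested) and 2 rose (8.70%, against 3.77%). Its median was 0.03. Cytokine receptors and JAK-STAT genes gave 6 falls (18.2%) and 0 rises among 33, with a median of -0.04. OSMR, the oncostatin M receptor, went from 108 ± 2.27 to 93.9 ± 4.07 CPM (-0.21, adjusted p = 0.00109) and SOCS6, an adaptor that marks signalling proteins for degradation, from 55.3 ± 1.87 to 47.7 ± 0.801 (-0.21, adjusted p = 0.00436). These were the only held members. The count was 3 without 0 µM replicate 2 and 2 without 100 µM replicate 1. KITLG, OSMR and VEGFA overlap genes on the opposite strand, and DDR2 overlaps RN7SL861P.

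Secreted matrix and growth-restraining proteins supplied several falls of abundant transcripts. IGFBP3, which binds insulin-like growth factors, stood at 1034, 1005 and 1010 CPM untreated and 776, 746 and 792 treated (-0.40, SE 0.0388, adjusted p = 5.29e-09). CTGF, a matrix-associated target of YAP, stood at 220, 241 and 233 CPM against 203, 188 and 197 (-0.24, adjusted p = 0.000665). THBS1, a matrix glycoprotein that restrains vessel growth, stood at 175, 179 and 170 CPM against 138, 139 and 138 (-0.33, adjusted p = 1.11e-06). None of these groups overlap. NTN4, a basement membrane netrin, went from 112 ± 1.38 to 88.9 ± 2.33 CPM (-0.34, adjusted p = 1.11e-07), and NRP2, a semaphorin and growth factor co-receptor, from 23.0 ± 1.82 to 17.3 ± 0.728 (-0.41, adjusted p = 9.02e-05; SD, n = 3 each).

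Around these genes the lists were mixed, beside 4.82% of all genes tested that fell and 3.77% that rose. YAP and TEAD targets gave 3 falls (12.5%) and 2 rises (8.33%) among 24 (median -0.10). Guidance genes gave 4 falls (13.3%) and 0 rises among 30 (median -0.01). Laminins and basement membrane genes gave 2 falls (8.70%) and 0 rises among 23 (median 0.00). Fibrillar collagens and matrix genes gave 3 falls (14.3%) and 0 rises among 21 (median -0.02). The laminin falls were 1 without 0 µM replicates 2 or 3 or 100 µM replicates 1 or 2, and 4 members of that list rose without 0 µM replicate 3. The guidance count was 2 without 0 µM replicates 1 or 3 and 1 without 100 µM replicate 3. The matrix count was 1 without 0 µM replicates 2 or 3 or any 100 µM library, and THBS1 was its held member. In the TGF-beta and BMP list of 35, 4 fell (11.4%) and 5 rose (14.3%), with a median of -0.02. SMAD3, which carries the TGF-beta signal to the nucleus, stood at 83.9, 84.6 and 90.0 CPM untreated and 70.9, 69.3 and 71.7 treated (-0.29, adjusted p = 6.49e-06). On the BMP side, BMP6, a ligand, rose by 0.31, and ID2 and ID3, inhibitors of differentiation that BMP signals induce, rose by 0.56 and 0.20. ID2 stood at 14.4, 16 and 14.9 CPM against 21.0, 22.0 and 23.5 (adjusted p = 2.12e-06). The fallen count was 1 without 0 µM replicates 1 or 2 or 100 µM replicates 1 or 3, and the risen count 3 without 0 µM replicate 2 or 100 µM replicates 1 or 3. CTGF, THBS1, NTN4, NRP2, SMAD3 and ID2 overlap genes on the opposite strand, and THBS1 also AC037198.1 on its own.

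Several cytosolic chaperones of the heat shock family were lower at 100 µM. HSPA8, the constitutive chaperone of the HSP70 family and the most abundant gene that fell, stood at 3179, 2993 and 2913 CPM untreated and 2422, 2404 and 2454 treated (-0.32, SE 0.0401, adjusted p = 9.48e-07). DNAJA1, its co-chaperone, stood at 561, 523 and 526 CPM against 462, 472 and 464 (-0.20, adjusted p = 0.000184). HSPA4, a nucleotide exchange factor for HSP70, stood at 322, 320 and 310 CPM against 280, 279 and 279 (-0.18, adjusted p = 0.0008). The treated libraries of these 3 genes lay below all 18 others. HSPA1A, a heat-inducible HSP70, went from 376 ± 0.498 to 317 ± 17.8 CPM (-0.25, adjusted p = 0.000613), which is uncertain because HSPA1B is a near-identical copy.

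Among 36 heat shock genes, 9 fell (25.0%, against 4.82% of all genes tested) and 2 rose (5.56%, against 3.77%). The median was -0.07, and HSPA8, DNAJA1, HSPA4 and HSPA1A held. The fallen count was 4 without 0 µM replicates 1 or 2 or 100 µM replicate 1. HSPA8 hosts snoRNAs on its strand, and HSPA4 overlaps AC113410.3. In the endoplasmic reticulum list of 32, 4 fell (12.5%) and 1 rose (3.13%), with a median of -0.04. HSPA5, the main chaperone of that compartment, stood at 1023, 998 and 1019 CPM against 911, 910 and 912 (-0.15, adjusted p = 0.00225), whereas XBP1, a transcription factor of the unfolded protein response, went from 144 ± 2.58 to 165 ± 2.01 CPM (0.19, adjusted p = 0.000428). The fallen count of that list was 1 without 0 µM replicate 1 or 100 µM replicate 1 and 2 without 100 µM replicates 2 or 3. The proteasome gave 4 falls (11.1%) and 0 rises among 36 (median -0.02). Of all genes with a mean of at least 32 CPM, 9.27% fell. The regulatory subunits PSMC6, PSMD1 and PSMD12 fell by 0.24, 0.20 and 0.17 on the log2 scale and held. Of these PSMD1 overlaps RNU1-93P and HTR2B.

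Some mitotic genes fell by small amounts. CCNA2, a cyclin of S phase and G2, stood at 147, 140 and 139 CPM untreated and 125, 128 and 122 treated (-0.18, adjusted p = 0.00127). ECT2, an exchange factor needed for cytokinesis, stood at 177, 179 and 164 CPM against 142, 150 and 146 (-0.25, adjusted p = 0.0014). The G2/M list of 44 had 8 falls (18.2%, against 4.82% of all genes tested) and 0 rises. Among all genes with a mean of at least 32 CPM, the share that fell was 9.27%. The median of the G2/M list was -0.10, and CCNA2 and ECT2 held. The fallen count was 2 without 0 µM replicate 2, 3 without 0 µM replicate 1 or 100 µM replicate 1, and 4 without 100 µM replicate 2. DNA replication and G1/S genes gave 3 falls (6.82%) and 0 rises among 44 (median -0.03). The falls were 0 without 100 µM replicate 3 and 1 without 0 µM replicates 1 or 2 or 100 µM replicate 2. CCNA2 overlaps EXOSC9 and ECT2 RNU4-4P on the opposite strand.

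Alongside these falls, p53 targets rose in part, with a median of 0.06. Of 25 tested, 6 rose (24%, against 3.77% of all genes tested) and 2 fell (8%, against 4.82%). CDKN1A, the cyclin-dependent kinase inhibitor p21, stood at 25.6, 23.6 and 26.4 CPM untreated and 34.4, 33.4 and 34.0 treated (0.43, SE 0.0662, adjusted p = 3.71e-05). GADD45A, a growth arrest protein, went from 34.3 ± 2.05 to 43.4 ± 2.36 CPM (0.34, adjusted p = 3.59e-05) and AEN, an apoptosis-enhancing nuclease, from 96.3 ± 1.95 to 108 ± 2.14 (0.16, adjusted p = 0.00417). In contrast PLK2, a polo-like kinase, stood at 110, 113 and 105 CPM against 87.4, 86.8 and 86.9 (-0.33, adjusted p = 5.18e-07), and POLH, a DNA polymerase that bypasses damage, fell by 0.23. All 5 held. PMAIP1, a pro-apoptotic BH3-only protein, stood at 15.1, 13.8 and 13.4 CPM against 24.6, 26.1 and 26.8 (0.87, SE 0.0719, adjusted p = 1.02e-10). It was the held member of the BCL2 and caspase list. There 3 of 28 rose (10.7%, against 3.77% of all genes tested) and 2 fell (7.14%, against 4.82%). The risen count was 1 without 0 µM replicate 1 or 100 µM replicate 3. CDKN1A and POLH overlap genes on the opposite strand.

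Genes of insulin and FOXO signalling moved both ways. GRB10, an adaptor that dampens insulin receptor signalling, stood at 3.99, 5.08 and 4.95 CPM untreated and 9.33, 8.70 and 8.76 treated (0.94, SE 0.114, adjusted p = 4.79e-07). FOXO3, a transcription factor that insulin signalling holds inactive, stood at 25.0, 22.9 and 25.6 CPM against 32.5, 32.3 and 30.3 (0.37, adjusted p = 1.45e-05). TXNIP, a target of the glucose sensor MondoA, stood at 29.2, 28.4 and 28.2 CPM against 40.4, 41.9 and 43.4 (0.55, SE 0.0504, adjusted p = 1.21e-09). Each of these 3 groups was separate. Of 32 genes on the insulin list, 7 fell (21.9%, against 4.82% of all genes tested), IGFBP3 and PHLPP1 (-0.23) as held members. On the same list 5 rose (15.6%, against 3.77%), among them PCK2, which is also on the ATF4 list. The list median was -0.01. The fallen count was 4 without 0 µM replicate 2 or 100 µM replicate 1 and 2 without 100 µM replicate 3, and the risen count 3 without 100 µM replicate 1. HIF1A, the oxygen-regulated factor, fell from 368 ± 10.5 to 312 ± 10.6 CPM (-0.24, adjusted p = 6.02e-05, SD, n = 3 each). HIF1A and VEGFA were the only calls among 34 genes of glycolysis and hypoxia. That is 2.94% lower and 2.94% higher, under the 4.82% and 3.77% of all genes tested. FOXO3, PHLPP1 and HIF1A overlap genes on the opposite strand, and HIF1A also AL137129.1 on its own.

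The list used here for the ATF4 programme, given for scale, had 45 rises (78.9%, against 3.77% of all genes tested) among 57 members. It had 1 fall and a median of 0.35. Whether rises outside this list depend on ATF4 was not tested. CHAC1 (chromosome 15 from 40952962 to 40956519) stood at 3.83, 3.29 and 3.56 CPM untreated and 26.0, 26.6 and 26.3 treated (2.88, SE 0.0917, adjusted p = 7.12e-22). ATF3 (chromosome 1 from 212565334 to 212620777) stood at 4.49, 5.29 and 5.71 CPM against 17.5, 17.7 and 17.6 (1.77, SE 0.0949, adjusted p = 1.77e-15). The treated libraries of both genes agree within 1 CPM of each other. Without single libraries 41 to 44 members rose.

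Outside that list, the 12 largest rises included those of 2 homeobox genes. These 12 were called protein-coding genes with separate groups and a mean log2 CPM of at least 1. HOXB9, a homeobox factor of body patterning, stood at 13.2, 12.4 and 12.8 CPM untreated and 23.5, 22.6 and 22.2 treated (0.83, SE 0.0683, adjusted p = 1.07e-10), and overlaps HOXB7 on its strand. ISL2, a homeobox factor of motor neurons, stood at 3.61, 3.57 and 3.24 CPM against 7.19, 6.57 and 5.03 (0.85, adjusted p = 3.91e-05). GABARAP, which binds autophagosome membranes, stood at 4.93, 4.27 and 4.71 CPM against 9.17, 8.81 and 8.26 (0.91, adjusted p = 9.74e-06). ATP6V0C, a membrane subunit of the proton pump of lysosomes, went from 7.55 ± 1.06 to 14.4 ± 0.845 CPM (0.93, adjusted p = 0.00139; SD, n = 3 each). ISL2, GABARAP and ATP6V0C overlap other annotated genes, and their counts are uncertain. SERF1B (1.53, adjusted p = 0.0483) has a near-identical copy, and its call ended when any 1 of the 6 libraries was left out. The other 11 of these 12 rises held. ULK1, the kinase that starts autophagy, stood at 48.7, 53.8 and 57.2 CPM against 81.7, 73.4 and 79.1 (0.55, adjusted p = 0.000151). In the autophagy list 5 of 35 rose (14.3%, against 3.77% of all genes tested) and 1 fell (2.86%, against 4.82%). Its median was 0.02, and 3 rose without 0 µM replicate 2 or 100 µM replicate 1.

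Replication-dependent histone genes gave 19 rises (51.4%, against 3.77% of all genes tested) and 0 falls among 37 members, with a median of 0.65. Their usual transcripts end in a stem-loop in place of a poly(A) tail. HIST1H2AC stood at 15.2, 14.9 and 15.2 CPM untreated and 26.2, 24.6 and 27.7 treated (0.80, SE 0.0731, adjusted p = 1.23e-09). HIST2H2BE stood at 5.95, 5.46 and 5.57 CPM against 10.7, 11.9 and 11.1 (0.99, SE 0.110, adjusted p = 9.03e-08). HIST1H2BD rose by 0.75, and HIST1H2AG and HIST1H2BK by 0.69 and 0.45. The groups are apart in each, but copies of a histone type are near-identical and single members are uncertain. The count was 12 without 0 µM replicate 2, and 11 members held. Host genes of snoRNAs, noncoding transcripts that carry guide RNAs of ribosome assembly, gave 11 rises (47.8%) and 0 falls among 23. Their median was 0.15. ZFAS1 stood at 44.7, 44.7 and 45.9 CPM against 61.3, 60.8 and 61.9 (0.44, SE 0.0508, adjusted p = 1.60e-07), and GAS5 went from 392 ± 6.50 to 475 ± 6.08 CPM (0.28, adjusted p = 1.44e-05; SD, n = 3 each). Their snoRNAs and neighbours lie in the same spans. Chromatin modifiers gave 8 rises (12.7%) and 1 fall (1.59%) among 63 (median 0.02). Of these, the histone demethylase genes KDM4A (0.45) and KDM7A (0.73) and the acetyl-histone reader BRD3 (0.26) held. The risen count was 3 without 0 µM replicate 2 and 4 without 0 µM replicate 1 or 100 µM replicates 1 or 3.

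Levels at the lower doses follow for genes chosen for their change at 100 µM, and no change at a lower dose was tested. TNFSF15 averaged 6.26 to 6.92 CPM from 0.001 to 1 µM, 4.73 ± 0.486 at 10 µM and 2.76 ± 0.272 at 100 µM (SD, n = 3 each). ELF3 averaged 25.3 to 27 CPM from 0.001 to 1 µM, 19.4 at 10 µM and 14.2 at 100 µM. WNT5A averaged 147 CPM untreated, 138 to 142 over those doses, 124 at 10 µM and 90.9 at 100 µM. In these 3 genes the mean at 10 µM lay between the untreated and the 100 µM mean. PHLDA1, at 33.4 CPM, TIPARP, at 66.8, and IER3, at 109, had means at 10 µM within 2.5 CPM of their untreated means of 34.2, 66.9 and 107. JUN averaged 12.8 CPM at 0 µM and at 10 µM alike and 20.9 at 100 µM. HSPA8 averaged 2832 to 3028 CPM at 0 to 10 µM and 2426 at 100 µM. Other genes had other courses. VEGFA averaged 90.8 CPM untreated, 113 at both 1 and 10 µM and 134 at 100 µM. EHF averaged 1.92 CPM untreated, 1.53 to 1.68 from 0.001 to 10 µM and 1.05 at 100 µM. These comparisons share the untreated libraries, so the levels are given as a description.

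**Figure D4:**
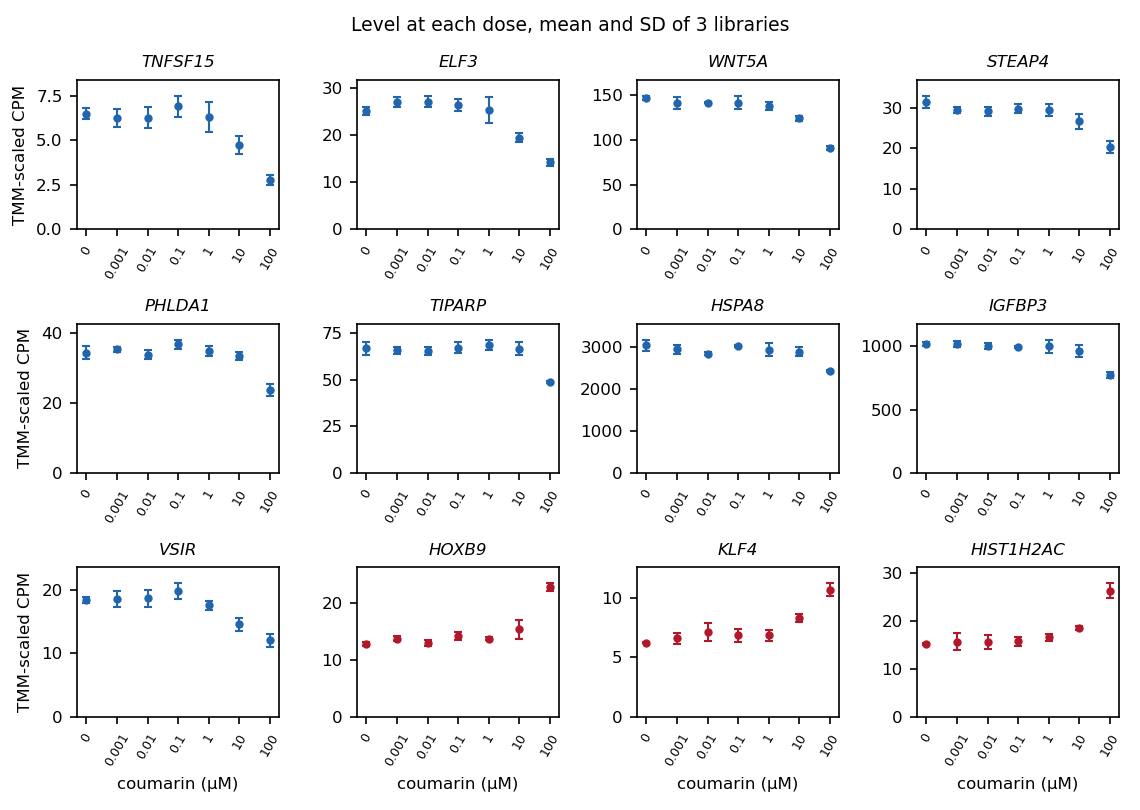
Mean TMM-scaled CPM with SD (error bars, n = 3 libraries) of 9 falling (blue) and 3 rising (red) genes at each of the 7 doses, which are spaced evenly and not to scale on the horizontal axis; vertical axes start at 0. TNFSF15, ELF3, WNT5A and VSIR have means at 10 µM under their untreated means, at 4.73, 19.4, 124 and 14.6 CPM. The mean of TIPARP at 10 µM, 66.8, is close to its untreated 66.9.

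Falling and rising genes differed in length and base composition. The lower genes had a median length of 6320 bases and a median GC content of 43.1%, the higher genes 3834 bases and 55.0%, and all genes tested 4233 bases and 48.2%. When the genes were divided into 4 equal classes from low to high GC, 8.42%, 5.93%, 3.14% and 1.78% were lower, and 0.988%, 2.50%, 5.07% and 6.52% higher. On chromosome 19, which is rich in GC, 0.994% of 1006 genes were lower and 7.26% higher, and on chromosome 18 9.38% of 256 were lower. The untreated libraries differed among themselves in the same property. Relative to the gene means over all 21 libraries, their levels changed by -0.0491, -0.0673 and 0.0149 on the log2 scale per 10 points of GC in replicates 1 to 3, and those of the treated libraries by 0.0606, -0.00509 and 0.0171.

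When the fit also held offsets for length and GC, 923 genes were lower and 604 higher, and the median GC of both became 48.4% and 48.5%. Of the 780 lower genes 613 kept their call, and of the 610 higher genes 438. In that fit, 7 aryl hydrocarbon receptor genes, 11 heat shock genes, 6 retinoid genes, 8 epithelial genes and 9 mitotic genes fell, and 18 histone genes and 12 snoRNA hosts rose. Risen counts went from 6 to 4 in the p53 list, and from 5 to 3 each in the TGF-beta and BMP, ribosome biogenesis and ribosomal protein lists. The fallen count of the epithelial list went from 5 to 8, and that of the ERK list from 4 to 6 of 19.

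**Figure D5:**
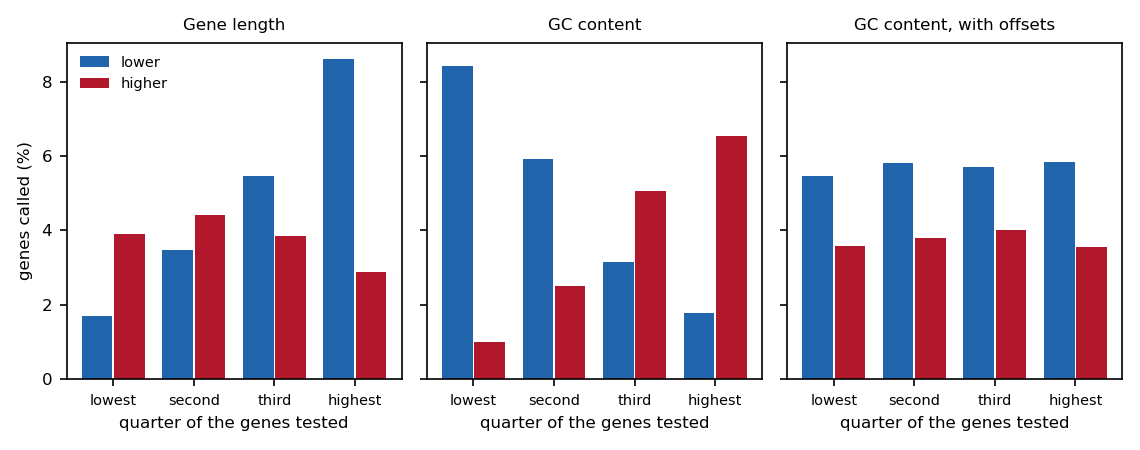
Percentage of genes called lower (blue) and higher (red) in 4 equal classes of the genes tested by gene length (left) and GC content (middle), and by GC content when the fit held offsets for both (right). The lower share falls from 8.42% to 1.78% across GC classes without offsets and lies between 5.46% and 5.83% with them.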

How the data were processed

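RNA sequencing of 21 libraries was deposited as whole-number gene counts, with no normalization per the file headers and values, and as FPKM computed by the authors, which equal counts over gene length and a library constant to within 1.07e-06. HISAT2, DESeq2 and the build GRCh38 appear per the submitters' processing notes, with no role stated. How reads were counted, whether by strand, and against which annotation is not given in the sources used here. Libraries were grouped by their labels, 3 per dose, and no column was left out.

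Counts were fitted with edgeR 4.0.16 in R 4.3.3 (filterByExpr, TMM, quasi-likelihood with robust estimation, 14 residual degrees of freedom, common biological coefficient of variation 0.0436) in 1 model of all 21 libraries and 7 dose groups, and 100 µM was contrasted with 0 µM. Benjamini-Hochberg adjustment covered the 16196 genes tested, and adjusted p under 0.05 was a call. Levels are TMM-scaled CPM, standard errors were derived from fold change and F, and 3 counts set the lower limit of detection. Gene lists were matched by symbol, and each was described by counts of calls and its median. Members and lists were chosen with earlier results of these data known, so no list is independent evidence.

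Genes were named by rule. Beside the 4 markers, these were called protein-coding genes whose log2 CPM averaged at least 1 and whose groups were separate: the 24 largest falls, the 12 largest rises outside the ATF4 list, and the 6 most abundant of each direction. From each list the called members were taken, or the 6 with the smallest p, and up to 2 uncalled ones. List members beyond those, RN7SL2 and genes named by level were chosen after their values were seen.

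Simulated counts for this comparison held 16196 genes. In them edgeR recovered 74%, 90%, 100% and 100% of the 50 genes with log2 changes of 0.25, 0.5, 1 and 2. Of 15996 genes left unchanged there, 7 were called. These figures describe simulated counts only and do not give the false-call rate of the real libraries, which was not measured. Real libraries differed in GC slope, from -0.0673 (0 µM replicate 2) to 0.0606 (100 µM replicate 1) per 10 points on the log2 scale. Total calls ran from 699 to 1603 when 1 real library was left out. Alternatives were DESeq2 1.42.0 and its size factors, limma 3.58.1 on log2(FPKM + 1) and log2(FPKM + 0.1), other filters, a fit of 6 libraries, the replicate number as a block, offsets for gene length and GC content, non-robust estimation (chosen after seeing the data), and each library left out. GC content came from GENCODE 29 transcripts. Promoters came from a RefSeq table (GRCh38.p14). Figures were drawn with matplotlib 3.10.9.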

Additional observations from a re-analysis of the deposited data

How the results depend on the processing

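Leaving out each of the 6 libraries in turn gave 699 to 1603 genes differing, 362 to 842 lower, 328 to 761 higher, 8 to 20 lower and 25 to 36 higher by 2-fold or more, and 185 to 289 called members over all lists, where all libraries gave 1390, 780, 610, 17, 42 and 278. Genes past 2-fold numbered 3 lower and 10 higher with DESeq2, 6 and 18 with a filter of 1 CPM in 3 libraries, 8 and 27 with limma on log2(FPKM + 0.1), and 1 and 8 on log2(FPKM + 1); with only the 6 libraries compared, 11 were lower. The cause was not tested. By construction a stricter filter tests fewer low genes and a pseudocount shrinks their changes, but the part of either in these counts was not measured. Total calls were 1211 to 1545 over the other 11 alternatives, and 252 lower and 222 higher genes kept their calls in all of them and in each fit with a library left out. With the replicate number as a block, 1350 genes differed, 758 lower and 592 higher. Deviations from the group mean correlated at -0.0728, 0.190 and -0.0797 in pairs of the same number, so the numbers were not taken to pair the samples. Of the 248 called genes under the rule for named genes, 126 kept their calls in each fit with a library left out. In these alternatives 0 of the 248 changed sign, but the fits share most libraries, so this is a weak check. Depth limits calls of low transcripts.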

Other observations

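Of 48 genes of ribosome biogenesis, 5 rose (10.4%, against 3.77% of all genes tested) and 2 fell (4.17%, against 4.82%). Their median was 0.01. RRP12, a ribosome export factor, rose from 78.4 ± 3.26 to 94.1 ± 1.32 CPM (log2 fold change 0.26, edgeR quasi-likelihood adjusted p = 0.000192), PPAN by 0.33 and WDR74 by 0.24, whereas WDR43 fell by 0.20 (SD, n = 3 each). The risen count was 3 without 0 µM replicates 1 or 2 or 100 µM replicate 1. PPAN, WDR74, WDR43 and RRP12 overlap other annotated genes. Cytosolic aminoacyl-tRNA synthetases, many of which are ATF4 targets, gave 8 rises (40%, against 3.77% of all genes tested) and 0 falls among 20. Their median was 0.11, and 7 of the rises held in every fit with a library left out.

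Ribosomal protein genes gave 5 rises (6.25%, against 3.77% of all genes tested) and 1 fall (1.25%, against 4.82%) among 80. Their median was 0.04. The 5 were 2 without 0 µM replicate 2 or 100 µM replicate 2 and 8 without 0 µM replicate 3, and reads of these genes can be shared with pseudogenes. Nuclear-encoded respiratory chain subunits gave 5 rises (6.67%) and 0 falls among 75. Of these COX6A1 and COX8A, subunits of cytochrome c oxidase, rose by 0.30 each. The risen count of these subunits was 3 without 0 µM replicate 1 and 2 without 0 µM replicate 2 or 100 µM replicate 3. No gene was called by edgeR among the 13 protein genes of the mitochondrial genome or the 18 genes of zinc handling and metallothioneins. NFIL3, a repressor in the circadian clock, rose from 6.95 ± 0.362 to 9.48 ± 0.111 CPM (0.45, adjusted p = 0.00104). Of 20 clock genes 1 rose (5%, against 3.77% of all genes tested) and 2 fell (10%, against 4.82%). The fallen clock count was 0 without 100 µM replicate 3. Of 22 mitochondrial transfer RNA genes tested, 4 were lower (18.2%) and 0 higher.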
